A study of Gallus gallus with 6 samples.

Results

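The genes described here are chicken genes annotated as components, binders, organisers or remodellers of chromatin. They were the closest gene of at least 1 listed region and carried, in the authors' gene ontology column, a term named exactly nuclear chromatin, chromatin remodeling, chromatin organization, chromatin binding or chromatin modification. Of 127 such genes, 0 carried the term protein ubiquitination, which would have removed them, and 5 were removed because their symbols stood among 12 names left out by the rule. This left 122 genes of 6437 in all, with 221 distinct regions of 10677. Chromatin binding was held by 84 genes, nuclear chromatin by 41, chromatin remodeling by 9, chromatin organization by 7 and chromatin modification by 0, and 18 genes held more than 1 of them.

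H3K4 methylation was profiled by ChIP-seq in 3 chicken populations, each with 1 immunoprecipitated (IP) and 1 input library. Embryonic stem cells (ESC) were isolated from the blastoderm at stage X and kept 24 h in DMEM with serum, LIF, bFGF and SCF. Primordial germ cells (PGC) were isolated from genital ridges, given as 4.5 d of incubation in the protocol but as 72 h (stage 27) in the stage label. Spermatogonial stem cells (SSC) were isolated from testes, at 18.5 d in the protocol and 18 d in the stage label. Cells were enriched by culture and no marker-based sort is described, so other gonadal cells may be present in the PGC and SSC libraries. The series title names dimethylated H3K4, while the antibody is labelled as binding both the dimethyl and the trimethyl form, so both may contribute to the signal.

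Methylation of histone H3 at lysine 4 marks active and poised promoters, mostly in its trimethyl form, and enhancers, mostly in its mono- and dimethyl forms. Chromatin itself is shaped by several groups of proteins. ATP-driven remodellers (SWI/SNF, ISWI, CHD and INO80) slide, evict or exchange nucleosomes, acetyltransferases and deacetylases write and erase histone acetylation, Polycomb proteins keep developmental genes silent, and cohesin and topoisomerases organise the fibre and relieve its torsion. Germ cells of vertebrates remodel their chromatin extensively as they move from a pluripotent founder state to the gonad.

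With 1 library of each kind per population there was no replicate check, no p-value was computed, and each difference is one between these libraries. Library totals were 19.2 to 26.0 megareads. At the regions of the chromatin genes the median was 10.5 to 26.5 reads in the IP libraries and 4 to 6 in the inputs, so single ratios are imprecise. Enrichment is the ratio of IP to input RPM, as the authors deposited it, and the log2 ratio compares the enrichment of the later population with that of the earlier one. The deposited log2 values run the other way, with the earlier population on top. Each log2 ratio is given with a 95% counting interval, which covers counting error only, and a difference was counted when it reached 2-fold. Each listed region had an enrichment above 1 in both members of a pair (the smallest value was 1.002) and was called as a peak in at least 1 of them, so genes lacking such a region have no value here. Germ cell markers were sparse among the closest genes of all regions: 3 of 9 were listed, with TDRD7 and TFAP2C called in ESC, none in PGC, and TDRD7 and CXCR4 in SSC. Of 9 somatic gonad markers 7 were listed, with 1 called in ESC, 2 in PGC and 6 in SSC (NR2F2, WT1, LHX9, EMX2, TCF21 and INHBB). Of 7 fibroblast markers 4 were listed, with 1 called in ESC, 2 in PGC and 3 in SSC. The part of such cells in the results below was not tested.

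Regions of 37 of the 122 genes were called in ESC alone, of 22 in PGC alone and of 30 in SSC alone. A further 18 genes had calls in ESC and SSC, 6 in ESC and PGC, 5 in PGC and SSC, and 4 (BCL6, DDX1, JUN and TCF12) in all 3. These shares were 30.3%, 18.0% and 24.6% for the single populations, against 27.6%, 25.6% and 20.8% over all 6437 genes. For the combinations they were 14.8% (ESC and SSC), 4.92% (ESC and PGC), 4.10% (PGC and SSC) and 3.28% (all 3), against 10.8%, 5.05%, 7.22% and 2.94% over all genes. Together 89 of the 122 genes were called in a single population (73.0%, against 73.9% of all genes).

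The regions called in the 3 populations lay in different places. ESC calls sat at gene starts: 40 of 63 regions called in ESC alone lay within 1 kb of a start in the table with PGC (63.5%, exact Clopper-Pearson 95% interval 50.4 to 75.3), and 46 of 69 in the table with SSC (66.7%, 54.3 to 77.6). No region called in PGC alone did, 0 of 21 in the table with ESC and 0 of 32 in the table with SSC, where 3 regions of the total would be 14.3% and 9.38% and the upper ends of the exact intervals are 16.1% and 10.9%. SSC calls fell between, with 9 of 47 regions in the table with ESC (19.1%, 9.15 to 33.3) and 14 of 53 in the table with PGC (26.4%, 15.3 to 40.3). The median distance from a start was 620 bp for ESC calls in the table with PGC, 22404 bp for PGC calls in the same table, and 3089 bp for SSC calls in the table with ESC. Over all genes the shares near a start were 65.4% and 66.7% for ESC calls, 3.90% and 3.33% for PGC calls, and 16.4% and 18.5% for SSC calls, all within the intervals of the chromatin genes.

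**Figure D1:**
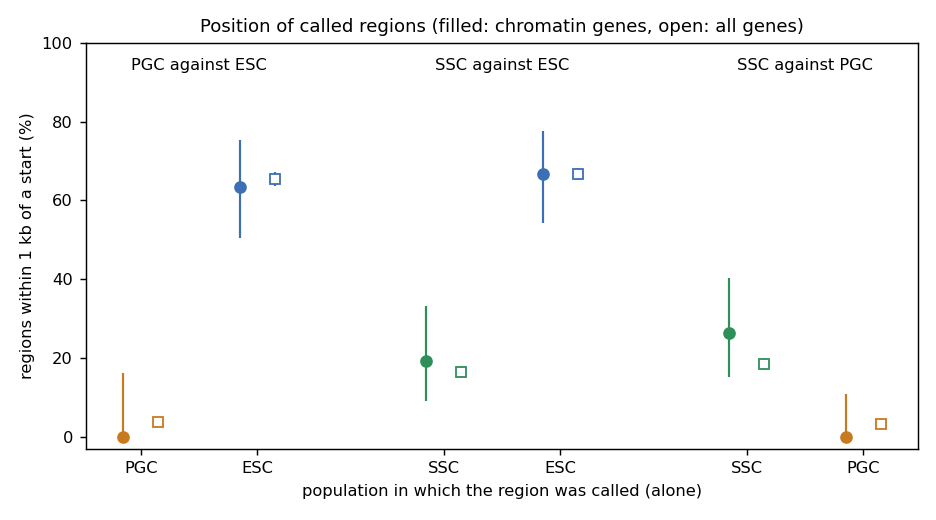
Share of regions within 1 kb of a transcription start, in percent, by the population in which the authors called the region and by table, with exact 95% intervals. Filled circles are regions of chromatin genes and open squares are regions of all genes; ESC calls lie between 63.5% and 66.7%, SSC calls at 19.1% and 26.4%, and PGC calls of chromatin genes at 0%.

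In PGC against ESC the enrichment of most chromatin genes was lower in PGC. Of 86 regions of 70 genes, 12 were at least 2-fold higher in PGC and 54 at least 2-fold higher in ESC, while 20 lay within 2-fold. These were 14.0% and 62.8% of the regions, against 23.5% and 48.4% of all 4801 regions in the table. Where the counting interval also excluded no difference, 2 regions were higher in PGC and 31 in ESC (2.33% and 36.0%, against 2.10% and 23.7% of all regions). The median log2 ratio was -1.42 over these regions and -0.90 over all regions. Relative to that median, 21 regions were higher in PGC and 31 in ESC, against 39.7% and 28.6% of all regions. Of the 31 regions higher in ESC by the interval, 23 stayed past 2-fold relative to that median (74.2%). Over all genes 981 of the 1138 such regions did (86.2%).

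With 1 value per gene, from its region nearest the start, 11 of the 70 genes were 2-fold higher in PGC and 42 in ESC, against 22.0% and 50.4% of all 3774 genes in the table. The role lists below use these values. The region of HELLS, a SNF2-family helicase needed for DNA methylation of repeats in mice, lay in the first intron (galGal4 chr6:16059435-16060694, its centre 378 bp downstream of the start). It held 23 IP and 24 input reads in PGC, against 159 IP and 11 input reads in ESC, and was called in ESC alone. Its enrichment was 1.19 in PGC and 10.2 in ESC, and the log2 ratio was -3.11 (-4.28 to -1.94). SMC3, a core subunit of the cohesin ring, was similar (chr6:25533659-25534463, the first intron): 12 IP and 14 input reads in PGC, against 105 IP and 5 input reads in ESC, a log2 ratio of -3.66 (-5.26 to -2.06). DEK, an architectural chromatin protein, had 15 IP and 10 input reads in PGC, against 96 IP and 14 input reads in ESC, and a ratio of -1.47 (-2.82 to -0.11), or -0.57 relative to the median of all regions. Of the 4 genes for architecture and HMG proteins 3 were 2-fold higher in ESC (SMC3, DEK and the topoisomerase TOP1) and 1, HMGN3, was higher in PGC at 1.90, with an interval of -0.41 to 4.22. In the same role list, 8 genes outside the chromatin terms were listed, of which 0 were 2-fold higher in PGC and 6 in ESC.

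The Polycomb subunit SUZ12, part of the complex that methylates H3K27, held 15 IP and 14 input reads in PGC, against 116 IP and 13 input reads in ESC, in its first intron (chr18:6561553-6562890). Enrichment thus stood at 1.32 in PGC, against 6.41 in ESC (log2 ratio -2.28, interval -3.58 to -0.99). BRD2, a reader of acetylated histones, had its largest difference in a region of 23 IP and 23 input reads in PGC, against 240 IP and 11 input reads in ESC, a ratio of -3.64 (-4.81 to -2.47). That region lies 1550 bp upstream of the annotated start and inside an intron of another gene model. By the region nearest the start, BRD2 and the other chromatin genes of its role list (4 in all) had ratios no lower than -1.29. Of these 4 values, 0 had an interval free of 0. ZNF462, a zinc finger protein linked to heterochromatin control in mouse, had 13 IP and 11 input reads in PGC, against 64 IP and 2 input reads in ESC, at 37228 bp upstream (-3.53, interval -5.53 to -1.52). Regions were tied to genes by the closest start alone, whatever the distance.

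Of 10 histone acetylation genes measured, 1 was at least 2-fold higher in PGC and 6 in ESC by the region nearest the start, beside the 22.0% and 50.4% of all genes given above. TAF5, a TFIID and SAGA subunit, had 12 IP and 8 input reads in PGC, against 60 IP and 3 input reads in ESC (-2.71, interval -4.62 to -0.81). For NCOR1, the scaffold of an HDAC3 corepressor complex, 3 IP and 3 input reads in PGC stood against 20 IP and 0 input reads in ESC. With the empty ESC input set at a floor of 3 counts, its enrichment was at least 3.26-fold lower in PGC. Such a bound covers the empty input and not the counting error of the other reads, and the interval of the log2 ratio as deposited runs from -7.22 to -0.19. The acetyltransferase EP300 differed less, with 24 IP and 15 input reads in PGC, against 127 IP and 20 input reads in ESC (-1.28, interval -2.40 to -0.15, and -0.38 relative to the median of all regions). HDAC9, a class II deacetylase, was the gene on the other side, with 15 IP and 5 input reads in PGC, against 13 IP and 7 input reads in ESC (1.29, interval -0.55 to 3.14), in a region 175014 bp from its start. Of the 13 listed acetylation genes outside the chromatin terms, 4 were 2-fold higher in PGC and 4 in ESC.

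Among remodellers, CHD4, the NuRD ATPase, had a ratio of -2.34 (-4.69 to 0.01), from 5 IP and 6 input reads in PGC, against 20 IP and 2 input reads in ESC at its start. SMARCA1, an ISWI ATPase, had 2 IP and 2 input reads in PGC, against 25 IP and 2 input reads in ESC in the first intron (-2.43, interval -5.31 to 0.45), too few reads to exclude no difference. INO80 stood at -2.48 (-5.12 to 0.16). The SWI/SNF genes ACTL6A and ARID1B lay within 2-fold at their nearest regions, but the value of ACTL6A (0.10) rests on 3 IP reads and an empty PGC input and becomes -1.90 with that input at 3 counts, below the 2-fold range. RBBP4, a histone-binding subunit shared by NuRD, CAF-1 and PRC2, went the other way. Its region in the fifth intron (chr23:5182170-5182616, 2717 bp downstream of the start) held 24 IP and 8 input reads in PGC, against 17 IP and 11 input reads in ESC, a log2 ratio of 1.58 (0.05 to 3.10), which falls below 2-fold without the inputs (0.84). Besides RBBP4, KLHDC3 was the other gene above 2-fold in PGC with an interval free of 0 (2.19, 0.02 to 4.36, from 16 IP and 3 input reads in PGC, against 8 IP and 5 input reads in ESC), and it is named here after its values were seen.

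The largest ratios in this comparison were not those of remodellers. However, the ratios of UPF1 and TRIM37 rest on 1 and 0 ESC input reads. With 5 added to every count they were -2.51 and -1.93, against -2.72 at HELLS and -3.25 at BRD2. UPF1, an RNA helicase of nonsense-mediated decay, had 8 IP and 8 input reads in PGC, against 50 IP and 1 input reads in ESC (-3.99, interval -6.42 to -1.55). For TRIM37, a ubiquitin ligase, 3 IP and 2 input reads in PGC stood against 30 IP and 0 input reads in ESC, an enrichment at least 3.61-fold lower in PGC with the empty input at 3 counts (interval as deposited -7.45 to -0.26). CHAF1A, the large subunit of the CAF-1 histone chaperone, and ASF1, the H3-H4 chaperone that feeds it, were at -1.66 (-3.31 to -0.01, and -0.76 relative to the median of all regions) and -2.69 (-3.98 to -1.40). ASF1 had 17 IP and 15 input reads in PGC, against 139 IP and 11 input reads in ESC. The 4 measured genes for replication and repair comprised 3 that were 2-fold higher in ESC (CDK1, ORC1 and MSH6) and CDC45 at -0.75. CDK1, the mitotic kinase, is 1 of 2 genes with a region called in both PGC and ESC: 20 IP and 15 input reads in PGC, against 124 IP and 14 input reads in ESC (-1.98, interval -3.20 to -0.76).

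**Figure D2:**
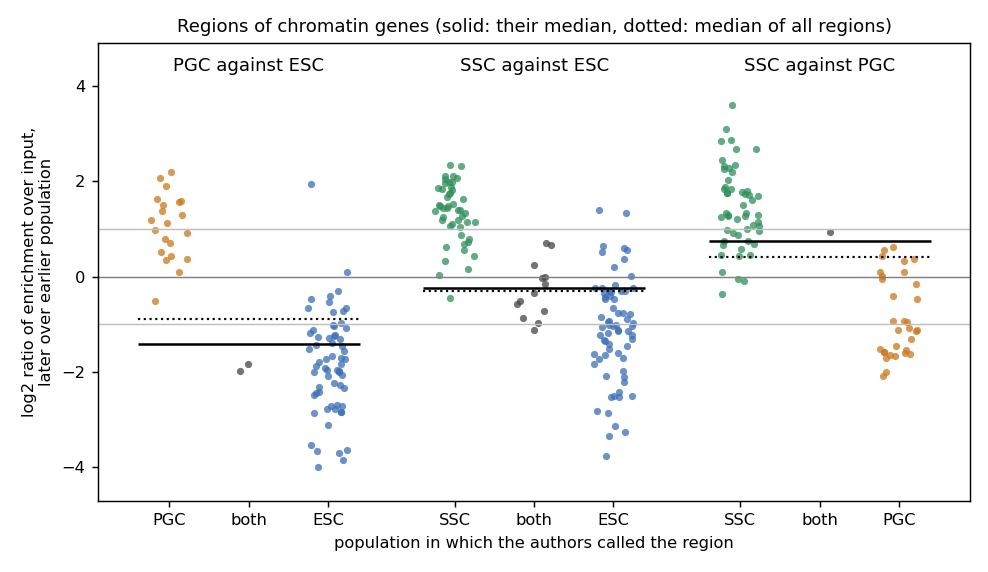
Log2 ratio of enrichment (later over earlier population) for every region of a chromatin gene in the 3 comparisons, by the population in which the authors called it. Solid lines are the medians over chromatin genes (-1.42, -0.25 and 0.74), dotted lines the medians over all regions (-0.90, -0.31 and 0.42), and grey lines mark 2-fold.

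SSC against ESC was more even. The table held 129 regions of 89 chromatin genes. Higher by 2-fold or more were 38 in SSC and 39 in ESC, and 52 lay within 2-fold. These were 29.5% and 30.2%, against 26.3% and 35.1% of all 5840 regions. With the interval also free of 0, 7 were higher in SSC and 16 in ESC (5.43% and 12.4%, against 4.83% and 11.97%, or 699 of 5840 regions). The median log2 ratio was -0.25 over these regions and -0.31 over all. Relative to the latter, 42 were higher in SSC and 26 in ESC, against 32.2% and 27.0% of all regions. Without the inputs the split was 15 higher in SSC and 52 in ESC (11.6% and 40.3%, against 17.3% and 40.9% of all regions). This comparison shares its ESC libraries with PGC against ESC, so its values are given beside those above and not as separate support.

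HELLS was low in SSC as well: 17 IP and 21 input reads in SSC, against 159 IP and 11 input reads in ESC, a log2 ratio of -3.34 (-4.57 to -2.10). SMC3 held 23 IP and 15 input reads in SSC, against 105 IP and 5 input reads in ESC (-2.87, interval -4.37 to -1.37). For SUZ12, 36 IP and 8 input reads in SSC, against 116 IP and 13 input reads in ESC, gave -0.33. Its interval of -1.65 to 0.99 excludes neither no difference nor a 2-fold lower value. The IP density of SUZ12, in RPM per kb of region, was 1.41 in SSC, against 3.33 in ESC. FOSL2, an AP-1 transcription factor, and PPARD, a nuclear receptor, were also lower in SSC, at -2.51 (-4.29 to -0.74) and -2.53 (-5.01 to -0.05). RNF168, the ubiquitin ligase that marks H2A at DNA breaks, had 5 IP and 5 input reads in SSC, against 21 IP and 0 input reads in ESC, at least 3.41-fold lower in SSC with the empty input at 3 counts (interval as deposited -7.09 to -0.45). Without the inputs its IP ratio alone was -1.43. CCNT2, a cyclin of the elongation kinase P-TEFb, had a region at 72 bp from its start with 6 IP and 7 input reads in SSC, against 31 IP and 3 input reads in ESC (-2.50, interval -4.60 to -0.41), and a second at 689 bp within 2-fold (-0.41, interval -2.55 to 1.73).

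The regions higher in SSC were shallower and lay mostly inside or upstream of genes. KAT2B, the acetyltransferase also called PCAF, had 3 regions called in SSC, at 359 bp upstream and at 74 and 1624 bp downstream of its start on chromosome 2. The last of them (chr2:36430334-36430598, the first intron) held 20 IP and 4 input reads in SSC, against 12 IP and 7 input reads in ESC, a log2 ratio of 2.06 (0.16 to 3.96). The other two stood at 1.15 (-1.51 to 3.81) and 1.99 (-0.68 to 4.66). TOP2A, the topoisomerase of dividing cells, had 12 IP and 2 input reads in SSC, against 10 IP and 7 input reads in ESC, in an intron 3089 bp downstream (2.35, interval 0.11 to 4.58). MTA1, a NuRD subunit, had 19 IP and 4 input reads in SSC, against 13 IP and 8 input reads in ESC (2.05, interval 0.19 to 3.91). SMARCA2, the SWI/SNF ATPase also called BRM, was at 2.32 (-0.13 to 4.77) from 12 IP and 2 input reads in SSC, against 6 IP and 4 input reads in ESC, in a region 12219 bp upstream. BEND6 and the gene ENSGALG00000008146, which has no symbol in the files, were at 1.83 (0.01 to 3.64) and 1.95 (0.06 to 3.85). Without the inputs 1 of the 7 regions higher in SSC by the interval stayed past 2-fold (14.3%), that of KAT2B at 1.13. Over all genes 176 of the 282 such regions did (62.4%). TOP2A then stood at 0.68, MTA1 at 0.96, BEND6 at 0.73 and ENSGALG00000008146 at 0.71. Of the 16 higher in ESC, 13 stayed past 2-fold (81.25%, against 87.1% of the 699 such regions of all genes).

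With 1 value per gene, 21 of the 89 genes were 2-fold higher in SSC and 33 in ESC, against 24.5% and 38.4% of all genes in the table. By role, histone acetylation genes held 3 that were 2-fold higher in SSC and 2 higher in ESC among 10, and 0 of these had an interval free of 0. Their median of -0.15 became 0.35 relative to the median of all genes, -0.42 with empty inputs at 3 counts and -0.82 without the inputs. Developmental transcription factors held 1 higher in SSC (KLF2) and 4 higher in ESC among 11, with a median of -0.65, while the 38 factors of that list outside the chromatin terms held 10 higher in SSC and 11 in ESC, with a median of 0.47. The 5 genes of the ISWI, CHD and NuRD list (CHD4, ERCC6, HELLS, MTA1 and SMARCA1) held 2 on each side. That list takes in ERCC6 and HELLS, which are not members of those groups. The 4 replication and repair genes held 0 higher in SSC and 3 in ESC, with a median of -1.33. Ratios above 2-fold at the region of TADA2B nearest its start (1.39) and at a SMARCA1 region 266 bp upstream (1.34) rest on empty SSC inputs and become -0.61 and -0.66 with those inputs at 3 counts. The SMARCA1 region nearest the start, 251 bp downstream, held 2 IP and 2 input reads in SSC, against 25 IP and 2 input reads in ESC (-2.43, interval -5.31 to 0.46).

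Of 13 regions of chromatin genes called in both SSC and ESC, 12 lay within 2-fold (92.3%, against 242 of the 397 such regions of all genes, 61.0%). SFPQ, a paraspeckle protein that binds DNA and RNA, had a region of 104 IP and 26 input reads in SSC, against 274 IP and 23 input reads in ESC (chr23:4343955-4346124, log2 ratio -0.87, interval -1.73 to -0.01). CITED2, a coactivator that binds EP300 and CREBBP, held 115 IP and 21 input reads in SSC, against 270 IP and 30 input reads in ESC. Its ratio was close to 0 at -0.04 (-0.89 to 0.81), but -0.78 without the inputs. ACTB, actin, which is also a subunit of remodelling complexes, was at -0.01 (-1.58 to 1.55). The exception was JUN, an AP-1 factor, at -1.12 (-2.05 to -0.19), or -0.54 without the inputs. With 5 added to every count JUN stood at -0.96, within 2-fold. The other genes with such a region were ATF2, BCL6, BRD2, CHD4, EP300, TCF12, TRIM24 and ZMYND8. Of these, BRD2 lay just inside 2-fold, at -0.97 (-1.89 to -0.06).

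In SSC against PGC the enrichment of chromatin genes was more often higher in SSC, as was that of all regions. The 86 regions of 62 genes divided into 36 that were higher by 2-fold or more in SSC, 17 in PGC and 33 within 2-fold. These were 41.9% and 19.8%, against 37.8% and 21.2% of all 4823 regions. With the interval also free of 0, 13 were higher in SSC and 2 in PGC (15.1% and 2.33%, against 9.58% and 1.80%). The median log2 ratio was 0.74 over these regions and 0.42 over all, and relative to the latter 25 were higher in SSC and 20 in PGC, against 25.4% and 33.4% of all regions. With 1 value per gene, 25 of the 62 genes were 2-fold higher in SSC and 11 in PGC, against 37.7% and 21.4% of all genes in the table.

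The 13 regions belong to 11 genes. LOXL2, a lysyl oxidase that also acts on histone H3, had 20 IP and 1 input reads in SSC, against 12 IP and 8 input reads in PGC, in an intron 11463 bp from its start (2.86, interval 0.44 to 5.29). Part of the SFPQ locus held 26 IP and 4 input reads in SSC, against 6 IP and 6 input reads in PGC (2.44, interval 0.39 to 4.48). KAT2B held 20 IP and 4 input reads in SSC, against 9 IP and 11 input reads in PGC (2.34, interval 0.48 to 4.19), in the intron region described above. TADA2B, an adaptor subunit of histone acetyltransferase complexes, had 15 IP and 1 input reads in SSC, against 8 IP and 7 input reads in PGC (2.83, interval 0.31 to 5.36), 739 bp from its start. BRD2 and CITED2 each had 2 of these regions, and ACTB had 1 with 22 IP and 5 input reads in SSC, against 14 IP and 12 input reads in PGC (1.73, interval 0.05 to 3.42). TRIM24, a bromodomain corepressor, was at 2.68 (0.21 to 5.15) and ZNF462 at 2.24 (0.42 to 4.07), both far upstream of their starts. SUPT4H1 and MYOCD complete the set and are named after their values were seen. MYOCD, with 15 IP and 0 input reads in SSC, against 7 IP and 5 input reads in PGC, was at least 3.01-fold higher in SSC with the empty input at 3 counts (interval as deposited 0.30 to 6.88, and an IP ratio alone of 1.08). Without the inputs 8 of the 13 regions stayed past 2-fold (61.5%, against 59.3% of the 462 such regions of all genes). The exceptions were LOXL2 (0.77), TADA2B (0.91), ACTB (0.70), ZNF462 (0.94) and SUPT4H1 (0.76).

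RBBP4 was again on the PGC side. Its intron region held 17 IP and 19 input reads in SSC, against 24 IP and 8 input reads in PGC (-1.62, interval -3.06 to -0.19, and -0.39 without the inputs). Both comparisons of this gene use the same PGC reads and are not independent of each other. TDRD3, a tudor-domain reader of methylated arginine, was the other region higher in PGC with an interval free of 0, at 8 IP and 8 input reads in SSC, against 19 IP and 4 input reads in PGC (-2.00, interval -3.94 to -0.05), 26046 bp upstream of its start. It is named after its values were seen. In the first intron of TDRD3 lay a different region, called in ESC, with 10 IP and 4 input reads in PGC, against 65 IP and 7 input reads in ESC (-1.22, interval -3.08 to 0.64). By the region nearest the start, the 4 genes of the ISWI, CHD and NuRD list held 1 higher in SSC (CHD4, at 1.32). The other 3 were higher in PGC (RBBP4, SMARCA1 and ERCC6). Their median was -1.34, or -0.32 without the inputs. The interval of CHD4 includes 0, as do those of SMARCA1 (-3.30 to 0.22) and ERCC6 (-3.41 to 1.14). Another ERCC6 region, 111832 bp upstream and called in SSC, went the other way, with enrichments of 3.71 in SSC and 1.07 in PGC. At the SMARCA1 region 251 bp downstream of the start, enrichment was 1.24 in SSC and 1.23 in PGC, from 2 IP and 2 input reads in each.

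**Figure D3:**
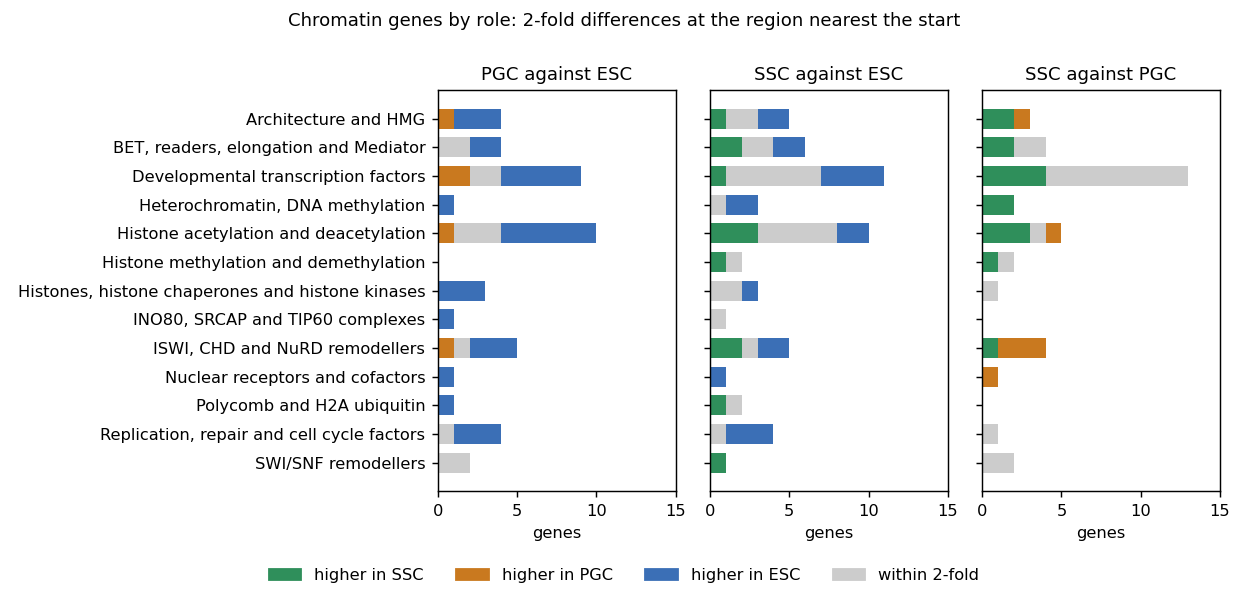
Number of chromatin genes in each role list that were at least 2-fold higher in the later population, within 2-fold, or at least 2-fold higher in the earlier one, by the region nearest the start. The lists are small: developmental transcription factors hold 9, 11 and 13 genes in the 3 comparisons and histone acetylation holds 10, 10 and 5.

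Regions with the same coordinates in more than 1 table allow the 3 populations to be set side by side. There were 80 such regions of 68 chromatin genes. In 39 the order of enrichment was ESC, then SSC, then PGC, and in 20 it was SSC, then ESC, then PGC. These orders were not counted over all genes. SSC exceeded PGC in 66 of the 80 (82.5%, against 68.0% of the 4787 regions set side by side over all genes). Calls in ESC alone made up 52 of the 80, calls in SSC alone 18 and calls in PGC alone 7. Over all genes they made up 2247, 1322 and 1066 of the 4787. A call in 1 population favours that population. SSC exceeded PGC in 18 of the 18 regions called in SSC alone and in 2 of the 7 called in PGC alone (over all genes 96.9% and 11.9%). The part of this mix of calls in the 82.5% was not tested. Over the 52 regions called in ESC alone the median enrichment was 5.37 in ESC, 1.54 in PGC and 2.54 in SSC, and SSC exceeded PGC in 43 of them (82.7%, against 75.6% of the 2247 such regions of all genes). These regions were chosen by their ESC call, and ESC was the highest in 43 of the 52 and not in 9.

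Among the 21 regions with at least 50 ESC IP reads, enrichment ran from 3.54 to 19.6 in ESC, from 1.07 to 2.75 in PGC and from 1.01 to 9.48 in SSC, and SSC exceeded PGC in 19. HELLS and ORC1, the origin recognition subunit, were the exceptions. The same count was not made over all genes at this read limit. Choosing regions by ESC IP reads favours high ESC enrichment, so the height of ESC over PGC and SSC here is not a separate result. Without the limit, SSC exceeded PGC over all genes in 75.6% of regions called in ESC alone. It did so in 98.6% of those called in ESC and SSC, but these were chosen in part by their SSC call, which favours SSC over PGC. HELLS had enrichments of 10.2 in ESC, 1.19 in PGC and 1.01 in SSC, and ORC1 had 6.83, 2.75 and 2.23 in the same order. At the other end, TAF5 had 11.7 in ESC, 1.78 in PGC and 9.48 in SSC. WDR82, a subunit of the SET1 complexes that write H3K4 methylation, had 6.79 in ESC, 1.85 in PGC and 5.98 in SSC. UBE2A, which ubiquitinates H2B, had 7.59 in ESC, 1.60 in PGC and 5.94 in SSC. The SSC values of TAF5, WDR82 and UBE2A rest on 2, 5 and 4 input reads. Their counting intervals were 2.85 to 31.6, 2.48 to 14.4 and 2.26 to 15.6 in the same order. IP density, in RPM per kb of region, was lower in SSC than in ESC at each of them. It was 1.494 against 2.998 at TAF5, 2.351 against 3.768 at WDR82 and 1.403 against 4.399 at UBE2A. SMC3, FOSL2 and CEBPB lay at the low end in both gonadal populations, with SSC enrichments of 1.85, 1.70 and 1.48. Counting intervals of PGC and SSC overlapped for many of these regions, and differences between single pairs are given above.

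**Figure D4:**
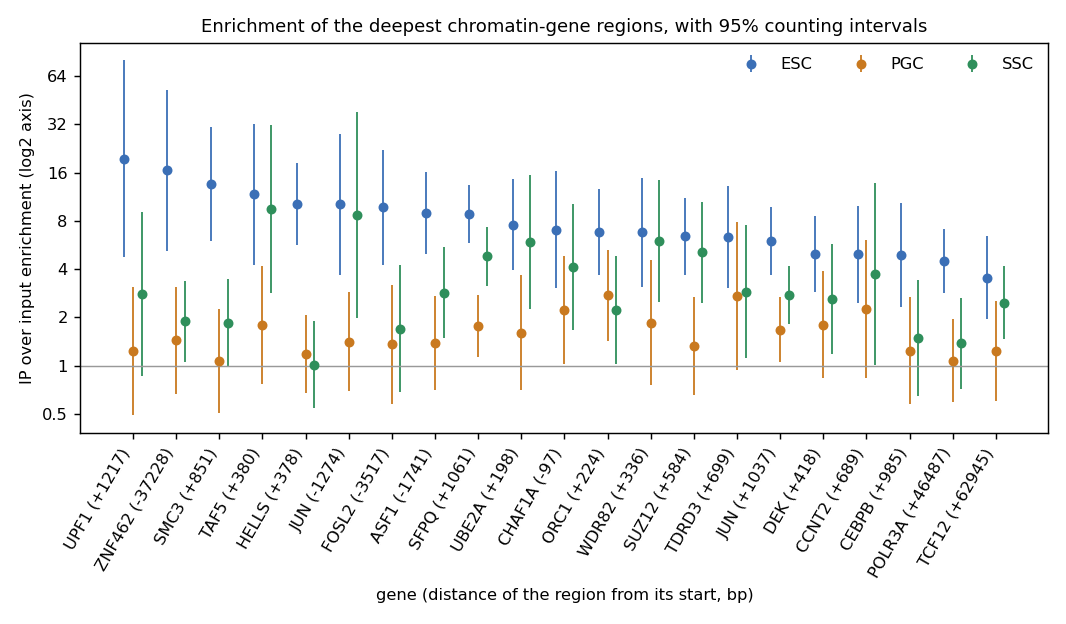
IP over input enrichment, on a log2 axis, at the 21 chromatin-gene regions listed in all 3 populations with at least 50 ESC IP reads, ordered by ESC enrichment. Points are single libraries with 95% counting intervals. The choice by ESC reads favours high ESC values. PGC lies between 1.07 and 2.75 throughout, while SSC reaches 9.48 at TAF5 (2 SSC input reads) and stays at 1.01 at HELLS.

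Most chromatin genes (74 of 122) had 1 distinct region, and 5 had 5 or more. Regions per gene were not counted over all genes. CITED2 and BCL6, a BTB zinc finger repressor that recruits NCOR1, had 9 each, and BRD2 and TSHZ1 had 6 each. At BRD2 an interval of about the same extent was listed in each table, cut differently. In SSC against ESC it was 1 region called in both (chr16:87399-89456), with 115 IP and 24 input reads in SSC, against 278 IP and 18 input reads in ESC. In PGC against ESC it was 2 ESC-called regions, and in SSC against PGC 3 SSC-called ones, whose log2 ratios were 3.09 (-0.04 to 6.22), 1.71 (0.27 to 3.14) and 2.18 (0.61 to 3.76). CITED2 showed the same layout over its short gene body: the PGC against ESC ratio was -1.73 (-2.61 to -0.85, and -0.83 relative to the median of all regions), from 51 IP and 27 input reads in PGC, against 257 IP and 25 input reads in ESC, and the SSC against PGC region at 633 bp was at 2.03 (0.04 to 4.02). The calls at BCL6 differed between its parts. The region at 1670 bp upstream held 10 IP and 10 input reads in PGC, against 46 IP and 3 input reads in ESC (-2.87, interval -4.77 to -0.96), while 4 smaller regions at 2213 bp upstream and at 933, 2205 and 2589 bp downstream were called in SSC and not in ESC. None of those 4 had an interval free of 0 against ESC. Enrichment at 933 bp was 5.62 in ESC and 4.12 in SSC, and at 2213 bp upstream it was 1.31 in ESC and 3.00 in SSC.

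JUN was the single gene of the whole series with a region called in all 3 populations at the same coordinates (chr8:25266358-25267882). It held 139 IP and 17 input reads in ESC, 41 IP and 30 in PGC and 70 IP and 31 in SSC, enrichments of 5.96, 1.67 and 2.74. A second JUN region, 1274 bp upstream, was called in ESC alone and was lower in PGC at -2.85 (-4.64 to -1.05). In SSC against ESC it was at -0.23, where 13 SSC IP reads stood over 1 input read. The interval of -2.82 to 2.36 is too wide to tell whether it was lower in SSC. Its IP density was 1.26 RPM per kb in SSC, against 3.71 in ESC.

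**Figure D5:**
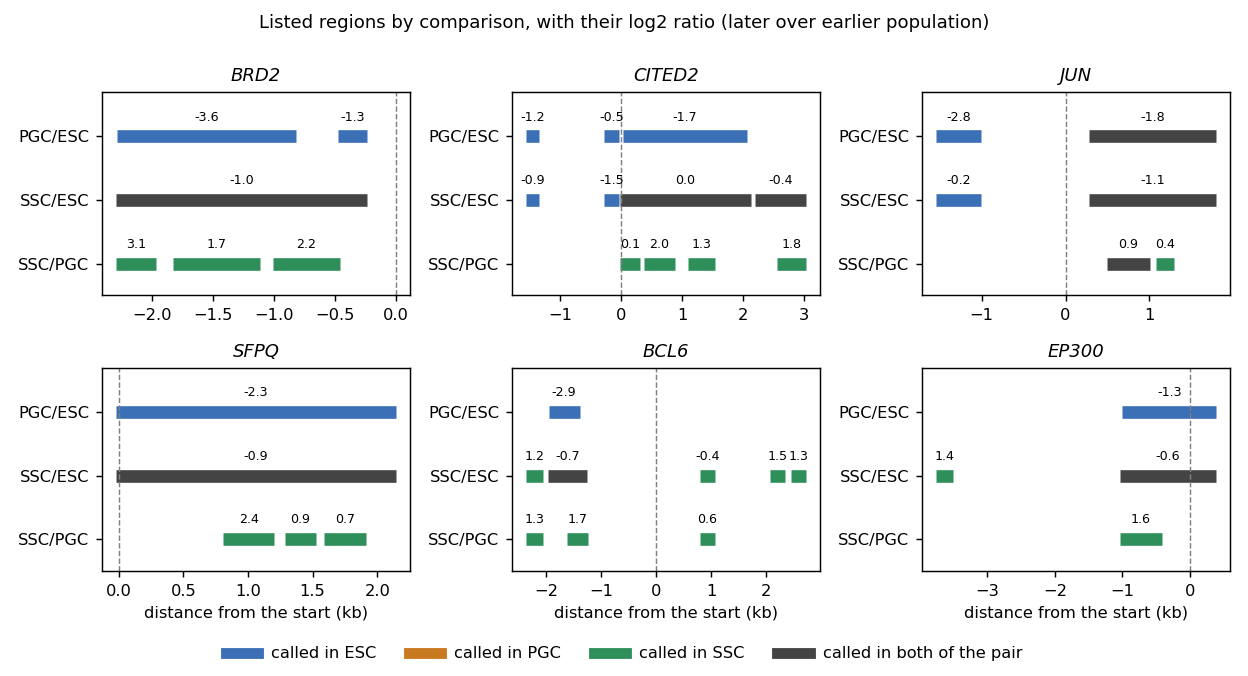
Regions listed within 5 kb of the starts of BRD2, CITED2, JUN, SFPQ, BCL6 and EP300, by comparison, at their distance from the start in kb, coloured by the population that called them and marked with the log2 ratio. The main regions of BRD2, SFPQ and EP300 carry an ESC call in PGC against ESC, a call in both populations in SSC against ESC, and an SSC call in SSC against PGC.

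PGC calls of chromatin genes were distal and shallow, as were those of all genes. Against ESC, their median distance was 22404 bp (17573 bp over all genes) and their median PGC IP count was 15 (16 over all genes). SSC calls of chromatin genes were as shallow, with a median of 15 SSC IP reads against ESC. TSHZ1, a zinc finger transcription factor, had 6 PGC-called regions from 61804 bp downstream to 18871 bp upstream of its start, with 12 to 21 PGC IP reads each and 0 with an interval free of 0. TSHZ2, its relative, had 21 IP and 7 input reads in PGC, against 9 IP and 6 input reads in ESC (1.63, interval -0.19 to 3.45). The deacetylase HDAC4 had 6 IP and 6 input reads in SSC, against 14 IP and 4 input reads in PGC (-1.58, interval -3.68 to 0.52), and THRB, a thyroid hormone receptor, stood at -1.52 (-3.29 to 0.25). DMRT1, the Z-linked gene for testis determination in birds, had 1 region, called in SSC, that did not differ detectably at this depth: 12 IP and 5 input reads in SSC, against 8 IP and 3 input reads in PGC (-0.05, interval -2.25 to 2.15).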

How the data were processed

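ChIP-seq and input libraries of ESC, PGC and SSC were compared pairwise, 1 library of each kind per population. Per the submitters' processing notes, CASAVA 1.8, FastQC, BWA and MACS2 and the build galGal4 were used, with no versions of the last 3 given. The authors deposited 3 tables of regions with read counts, RPM, fold enrichment (a ratio of IP to input RPM) and the log2 ratio of the enrichments. RPM in the deposited tables was the count plus 1 per megaread, and 100% of values gave back a whole count within 0.05 reads. Recomputed log2 ratios differed from the deposited ones, turned round, by at most 5.55e-15. The base from which coordinates count is not given in the sources used here.

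Rows repeating a region for several overlapping genes were collapsed (90, 152 and 55 in PGC against ESC, SSC against ESC and SSC against PGC), and a gene's value was that of its region nearest the start. Counting intervals used the delta method on the 4 counts plus 1, at 95%, without replicates, and PCR duplicates were not known. For bounds an empty input entered as 3 reads, with 1 added as for every count, and shares have exact Clopper-Pearson intervals. Python 3.11.15 with numpy 2.4.6, pandas 2.3.3 and scipy 1.17.1 was used, and the ratio and its interval were tested on simulated counts.

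Named were, per comparison and direction, up to 8 genes with the largest ratio among regions of at least 20 IP reads in 1 population, at least 2-fold with an interval free of 0, then up to 2 further genes per role list, genes with a region called in both populations, and the 3 genes with the most regions. Genes with tables calling the same single population were to be named too, but a gene cannot meet that rule. ASF1, CHAF1A, KLHDC3, WDR82, TDRD3, SUPT4H1, MYOCD, DMRT1, HDAC4, TSHZ1 and TSHZ2 were partly or wholly chosen after their values were seen. The genes and the 13 role lists were chosen with earlier results of these data known. Promoter sequences are not analysed here.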

Additional observations from a re-analysis of the deposited data

How the results depend on the processing

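No paired analysis was possible because each population has 1 IP and 1 input library and the labels give no shared replicate numbers. Depth limits most single ratios, since counting standard errors were near 1 on the log2 scale. The causes of the changes below were not tested.

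In PGC against ESC, the 12 regions higher in PGC became 21 after centring on the median of all regions, 5 at 3-fold, 2 where the counting interval excluded no difference, 3 with at least 20 IP reads, and 5 without genes holding chromatin binding alone. The 54 higher in ESC became 31 after centring, 31 where the interval excluded no difference and 26 without genes holding chromatin binding alone. In SSC against ESC, the 38 higher in SSC became 15 without inputs, 17 at 3-fold, 7 by the interval, 6 with at least 20 IP reads and 16 without genes holding chromatin binding alone. The 39 higher in ESC became 23 with 5 added to every count, 21 at 3-fold, 16 by the interval and 16 without genes holding chromatin binding alone. In SSC against PGC, the 36 higher in SSC became 13 by the interval, 13 with at least 20 IP reads and 16 without genes holding chromatin binding alone. The 17 higher in PGC became 10 with 5 added, 7 at 3-fold, 2 by the interval, 4 with at least 20 IP reads and 6 without genes holding chromatin binding alone. Leaving out genes or regions lowers a count by itself.

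The median over genes was -1.30 in PGC against ESC and -0.28 after centring on all genes. In SSC against ESC it was -0.45, -0.95 without inputs and 0.051 after centring, while in SSC against PGC it stayed within its interval under the 6 alternatives. Shares near a start moved with the distance: within 500 bp they were 44.4% and 46.4% for ESC calls in the tables with PGC and SSC, and 8.51% and 11.3% for SSC calls in those with ESC and PGC. Within 2 kb they were 79.4% for ESC calls in the table with PGC, and 34.0% and 49.1% for SSC calls. Of 388 recomputed values of named genes, 385 stayed within their counting interval and kept their sign where they had reached 2-fold. TADA2B in SSC against ESC turned from 1.39 to -0.61 with its empty SSC input at 3 counts and to -0.86 without inputs, and the ZNF462 region 37228 bp upstream moved from -3.14 to -0.72 without inputs in the same comparison. The counting intervals are wide, so staying within them is a weak check, and values that fell below 2-fold still counted as staying. NCOR1 in SSC against ESC, for example, went from -2.53 to -0.53 with its empty ESC input at 3 counts.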
